A study of Mus musculus with 12 samples.

Results

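Oxidative phosphorylation makes ATP with the energy of electrons passed from nutrients to oxygen. Complexes I and II pass electrons from NADH and succinate to ubiquinone, complexes III and IV carry them on to oxygen through cytochrome c, and complex V (ATP synthase) uses the proton gradient built by complexes I, III and IV to make ATP. Most subunits are encoded in the nucleus and imported, a few are encoded by mitochondrial DNA, and several subunits of complexes IV and V exist as paralogs that are used in different tissues. RAS oncogenes are known to alter glucose use and mitochondrial metabolism, so the level of these transcripts was compared in fibroblasts that carried different Nras alleles.

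The genes described here are nuclear-encoded subunits of the 5 complexes, but not all of them. Subunits with other symbols, such as Ndufab1 of complex I and Cyc1 of complex III, are not among them. They were chosen by symbol alone (Nduf with a, b, c, s or v and a digit, Sdha to Sdhd, Uqcr, Cox4 to Cox8, and Atp5) and by a minimum of 120 reads over all libraries. Of 24419 genes counted, 84 had such a symbol and 80 reached the minimum: 34 of complex I, 4 of complex II, 8 of complex III, 16 of complex IV (Ndufa4 counted there), 15 of complex V, and 3 that carry a matching symbol without being a subunit in the usual sense (Atp5s, Atp5sl and Ndufa4l2). The 4 under the minimum were Cox8c and Ndufs5 with 0 reads, Cox7b2 with 2 and Cox8b with 31. Ndufs5 encodes a complex I subunit, and 95.1% of its exon bases also belonged to BC002163, a gene model on the same strand that held 102 reads in all, so a reading of 0 there cannot be taken as a level. No gene of the mitochondrial chromosome was in the table, and the 26 listed mitochondrially encoded RNAs were not analysed here.

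RNA was from primary mouse embryonic fibroblasts (MEFs) of C57BL/6 embryos at E13.5, used at passage 3 and homozygous for a Cre-activated (LSL) Nras allele knocked into its own locus. The encoded residue at codon 61 was arginine (61R/R), histidine (61H/H), proline (61P/P) or the normal glutamine (61Q/Q, the wild-type protein made from the same cassette). There were 3 libraries of each genotype, 12 in all, described as biological replicates, and all were collected 6 days after infection with an adenovirus that carried Cre and eGFP. Every line also carried the Tyr::CreERT2 transgene, whose promoter belongs to melanocytes, so recombination here came from the virus. The 61H, 61P and 61Q alleles had been made by zygotic editing of the 61R allele, both alleles were altered in every line, and the study calls 61R/R and 61H/H melanomagenic and 61P/P and 61Q/Q non-melanomagenic.

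Libraries held 73222911 to 92179519 assigned reads. Nras itself was read at 107, 124 and 116 CPM in 61R/R MEFs, 126, 118 and 117 in 61H/H MEFs, 88.1, 100.4 and 108 in 61P/P MEFs, and 96.6, 104.7 and 95.0 in 61Q/Q MEFs (CPM, counts scaled to a common library size). All 12 fibroblast markers were at or above 1 CPM in every library, and their summed level differed between genotypes: 21517 to 37933 CPM in 61R/R MEFs, 21991 to 24655 in 61H/H MEFs, 33605 to 37819 in 61P/P MEFs and 44875 to 62529 in 61Q/Q MEFs. Most of that sum was Col1a1, Col1a2 and Fn1, and the list did not move one way: 2 markers were higher and 5 lower in 61R/R MEFs, 3 and 7 in 61H/H MEFs, and 1 and 2 in 61P/P MEFs, with S100a4 higher in each (log2 fold changes of 0.60, 0.84 and 0.53). The 13 macrophage markers summed to 153 to 280 CPM in 61R/R MEFs, 134 to 208 in 61H/H MEFs, 134 to 339 in 61P/P MEFs and 250 to 370 in 61Q/Q MEFs. The 11 brown adipocyte markers, a cell type rich in mitochondria, summed to 23.0 to 32.1 CPM in 61R/R MEFs, 24.2 to 28.8 in 61H/H MEFs, 22.9 to 27.5 in 61P/P MEFs and 19.3 to 24.4 in 61Q/Q MEFs, with the defining marker Ucp1 near 0 (19 reads in all). In a bulk library, fewer cells of a type and less RNA per cell cannot be told apart, and the part of these differences in the values that follow was not tested.

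Most subunit transcripts were well detected, with a few tissue-restricted paralogs near the limit of detection. Of the 80 genes 73 averaged 10 CPM or more, and 4 averaged under 1 CPM (Cox4i2, Cox6a2, Cox7a1 and Ndufa4l2). On the scale of CPM per kilobase of counted exon, the median level was 41.8 for complex I, 55.3 for complex II, 83.1 for complex III, 93.0 for complex IV and 99.96 for complex V. The highest single level was that of Atp5b, the catalytic beta subunit of ATP synthase, at 449 CPM per kilobase, followed by Cox4i1 at 242.

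Transcripts of oxidative phosphorylation were slightly more abundant in MEFs with a mutant Nras than in 61Q/Q MEFs. The 80 genes together took 0.520%, 0.598% and 0.601% of the counts in 61R/R libraries, 0.587%, 0.583% and 0.595% in 61H/H MEFs, 0.547%, 0.545% and 0.542% in 61P/P MEFs, and 0.491%, 0.503% and 0.487% in 61Q/Q MEFs. All 9 mutant libraries lay above the 3 of 61Q/Q on this share, with the lowest being 61R/R replicate 1. After scaling, their summed level was 5629 ± 284 CPM in 61R/R MEFs, 5690 ± 66.6 in 61H/H MEFs, 5394 ± 122 in 61P/P MEFs and 5244 ± 78.9 in 61Q/Q MEFs (mean ± SD, n = 3 each). On this scaled sum the libraries overlapped: 61R/R replicate 1 (5301 CPM) and 61P/P replicate 1 (5263) lay below the highest 61Q/Q library (5314), and the 61H/H libraries did not. The median of the 80 log2 fold changes relative to 61Q/Q was 0.11 in 61R/R MEFs, 0.13 in 61H/H MEFs and 0.07 in 61P/P MEFs, which correspond to 8.20%, 9.46% and 4.95%, while the median over all 15759 genes tested was 0.01 in each of the 3 comparisons. Fold changes were above 0 for 70, 71 and 62 of the 80 genes, against 50.9%, 50.9% and 51.9% of all genes.

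Few of these small differences passed the test for single genes (edgeR quasi-likelihood test, Benjamini-Hochberg adjusted p under 0.05 over all genes tested). In 61R/R against 61Q/Q 8 of the 80 genes were higher and 1 was lower, where 9.43% of all genes were higher and 9.59% were lower. In 61H/H against 61Q/Q 17 were higher and 2 were lower, with 13.8% and 14.5% of all genes. In 61P/P against 61Q/Q 1 gene was higher and none was lower, with 3.15% and 3.69% of all genes. There 14 of the 80 had an unadjusted p under 0.05, as did 4270 of 15759 genes in all. With a trend on gene length removed from each library, the counts were 1 higher and 3 lower in 61R/R MEFs, 5 higher and 3 lower in 61H/H MEFs, and 0 higher and 1 lower in 61P/P MEFs. In the same fits 18.2%, 27.0% and 6.43% of all genes were called, in either direction. The number called higher in 61R/R MEFs was close to the share over all genes, and the number called lower was under that share in each comparison before the length trend was removed, a difference that was not tested.

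Called genes were 6 in common between 61R/R and 61H/H (Atp5sl, Cox6a2, Cox6b2, Ndufa12, Uqcr11 and Uqcrh), 3 in 61R/R alone (Atp5g2, Ndufb8 and Ndufs6) and 13 in 61H/H alone. Those 2 comparisons share the 61Q/Q libraries, and a call in one and not in the other is no difference between the mutants. In the edgeR test 61R/R and 61H/H differed in 0 of the 80 genes and in 0.0% of all genes (smallest adjusted p of the 80, 0.992). Of the 80, 1 had an unadjusted p under 0.05, as did 778 of 15759 genes in all, and DESeq2 and limma-voom called 0 of the 80. Over all genes DESeq2 called 24 of 15752 (0.152%) and limma-voom called 0. The counts against 61Q/Q depended on single libraries, as did those over all genes. No gene was called in 61R/R MEFs when 61R/R replicate 2 or 3 or 61Q/Q replicate 1 or 3 was left out, 3 to 5 were called without a 61H/H library, 4 and 5 without 61P/P replicates 2 and 3, and 29 without 61R/R replicate 1. Of all genes 19.0% were called in that comparison with every library kept, 0.0% in each of the 4 fits without a call among the 80, and 27.3% without 61R/R replicate 1. In 61H/H the count was 3 without 61H/H replicate 1, 5 without replicate 2 and 7 without replicate 3, 4 and 3 without 61Q/Q replicates 1 and 3, but 28 without 61R/R replicate 1, which enters that comparison only through the shared estimate of the spread. Of all genes 28.2% were called in 61H/H MEFs with every library kept, and 13.7%, 15.4% and 20.3% without 61H/H replicates 1, 2 and 3. Of the 19 calls in 61H/H MEFs those of Cox6b2 and Atp5l held with each of the 12 libraries left out in turn. In 61P/P the count was 5 without 61R/R replicate 1, 2 without 61R/R replicate 2, 3 without 61Q/Q replicate 2, and 0 without any 61H/H library, 61P/P replicate 1 or 2, or 61Q/Q replicate 1 or 3.

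**Figure D1:**
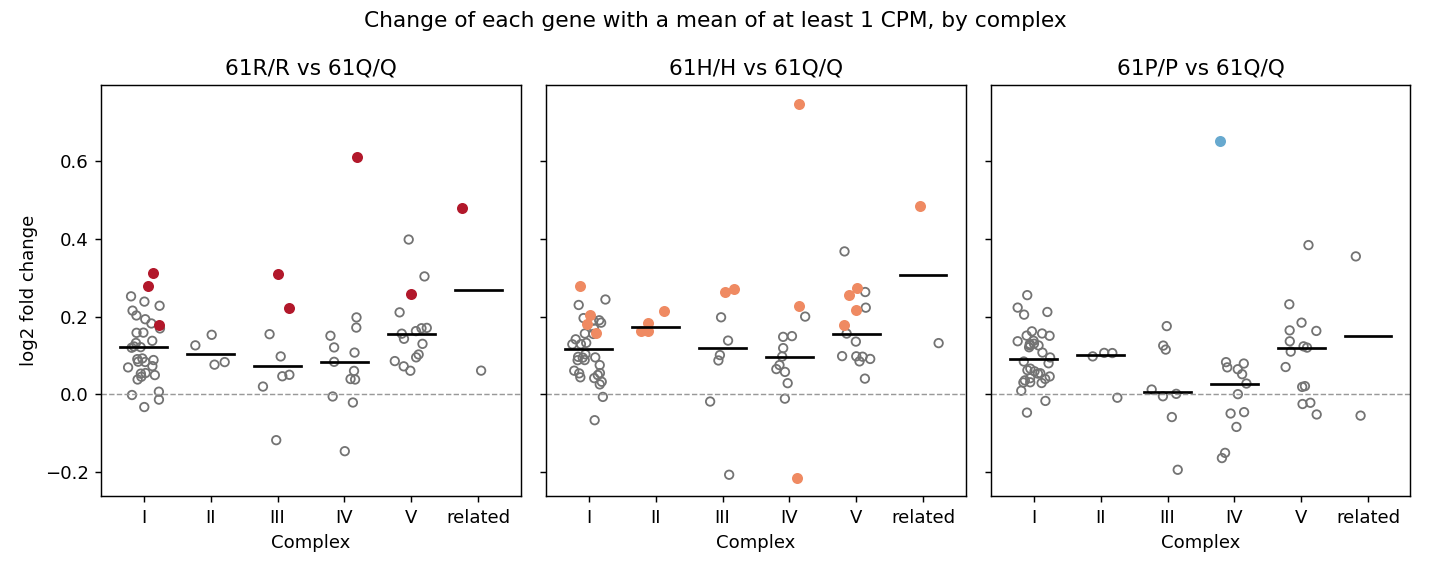
Log2 fold change relative to 61Q/Q (vertical axis) of each subunit gene averaging at least 1 CPM, by complex, with 1 panel for each mutant genotype; filled points had an adjusted p under 0.05, open points did not, and bars are medians. Most points lie just above 0 in all panels, and all 15 complex V genes are above 0 in 61R/R MEFs and in 61H/H MEFs.

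Where the libraries of a mutant did not overlap those of 61Q/Q, they were mostly above them. The 3 libraries of 61R/R were all above the 3 of 61Q/Q for 20 of the 80 genes (17.9% of all genes) and all below for 2 (19.2%). For 61H/H these counts were 40 (24.5% of all genes) and 2 (23.5%), and for 61P/P 28 (13.9%) and 2 (14.8%). In either direction the libraries did not overlap for 27.5% of the 80 genes in 61R/R MEFs, 52.5% in 61H/H MEFs and 37.5% in 61P/P MEFs, where 37.1%, 47.9% and 28.7% of all genes did not. Within 61R/R, replicate 1 was the lowest of the 3 libraries for 72 of the 80 genes. The median deviation of the genes from their own mean over all libraries was -0.06, 0.08 and 0.09 log2 units in the 61R/R libraries, 0.03, 0.04 and 0.08 in 61H/H MEFs, -0.02, 0.00 and -0.01 in 61P/P MEFs, and -0.09, -0.08 and -0.06 in 61Q/Q MEFs. On this scale 61R/R replicate 1 lay beside the 61Q/Q libraries.

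**Figure D2:**
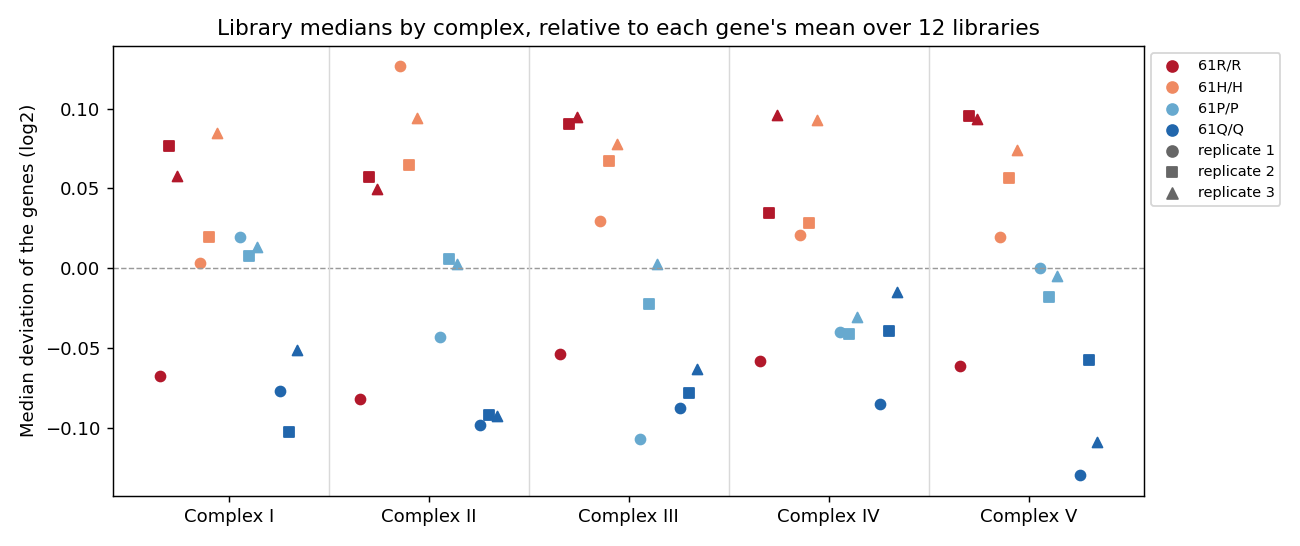
Median deviation of the subunit genes from their mean over all 12 libraries (vertical axis, log2 CPM) for complexes I to V, with 1 point per library grouped by genotype and the symbol giving the replicate. In each complex 61R/R replicate 1 sits below the other 61R/R libraries, and in complexes I, II and V all 61Q/Q libraries are below all 61H/H and 61P/P libraries.

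Counted length moved with this result. The subunit genes are short, with a median counted length of 725.5 bases (292 to 2927) against 2829 for all genes tested, and 53 of them were under 1000 bases. Over all 1409 tested genes under 1000 bases the median log2 fold change relative to 61Q/Q was 0.09 in 61R/R MEFs, 0.09 in 61H/H MEFs and 0.06 in 61P/P MEFs, while the 53 short subunit genes had medians of 0.13, 0.10 and 0.08. Over the 7016 genes of 1000 to under 3000 bases the medians were 0.03, 0.04 and 0.02, and the 27 subunit genes of that size had 0.10, 0.14 and 0.05. With a trend on length taken out of each library, the median of the 80 genes was 0.03 in 61R/R MEFs, 0.05 in 61H/H MEFs and -0.01 in 61P/P MEFs. Then 4, 8 and 1 of them were called, of which 3, 3 and 1 were lower, where 18.2%, 27.0% and 6.43% of all genes were called. Genotype and length trend move together in these libraries, and the source of the trend was not tested.

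**Figure D3:**
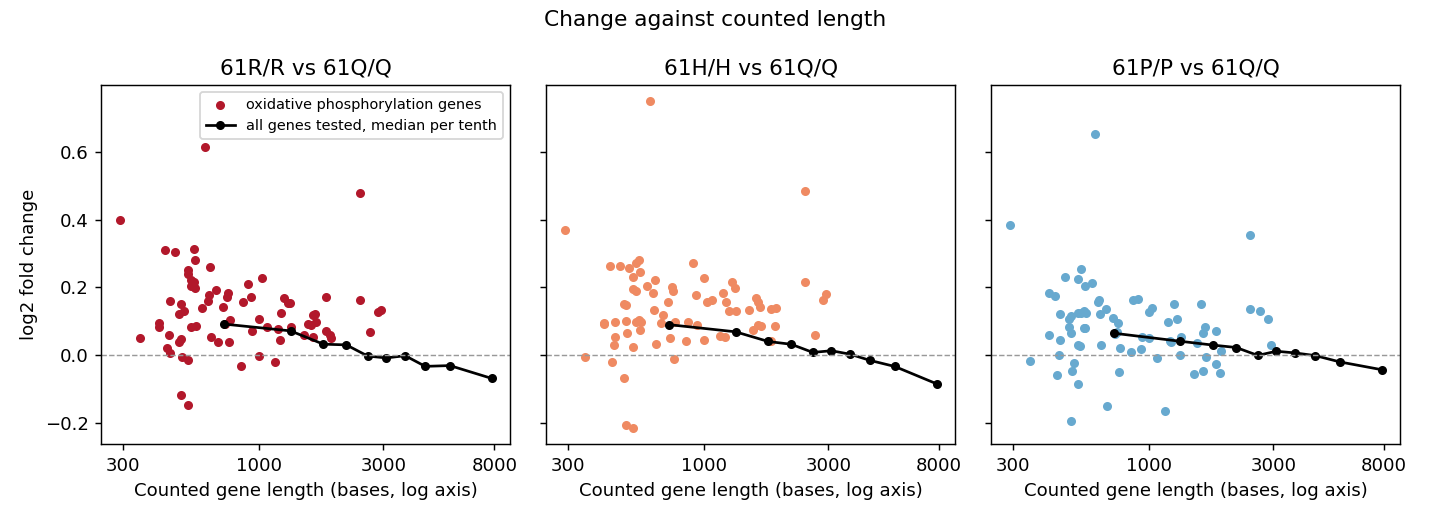
Log2 fold change relative to 61Q/Q (vertical axis) against counted exon length in bases (horizontal axis, log scale) for the subunit genes averaging at least 1 CPM, with 1 panel for each mutant; the black line joins the medians of all tested genes in 10 classes of length. The line lies above 0 for short genes and below 0 for long ones, and the subunit genes fall in its short range.

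Complex I, the NADH dehydrogenase and the largest of the complexes, had a median log2 fold change of 0.12 in 61R/R MEFs, 0.12 in 61H/H MEFs and 0.09 in 61P/P MEFs relative to 61Q/Q. Of its 34 genes 3, 4 and 0 were higher (8.82%, 11.8% and 0.0%), where 9.43%, 13.8% and 3.15% of all genes were, and none was lower. In 61P/P MEFs 5 of the 34 had an unadjusted p under 0.05, as did 4270 of 15759 genes in all. The clearest of complex I was Ndufa12, an accessory subunit, with 30.8, 37.5 and 39.4 CPM in 61R/R MEFs, 33.9, 35.01 and 36.3 in 61H/H MEFs, 29.8, 31.1 and 34.0 in 61P/P MEFs, and 27.2, 30.5 and 28.9 in 61Q/Q MEFs. All 61R/R and 61H/H libraries were above all 61Q/Q libraries, and the 61P/P libraries overlapped them. The log2 fold change of Ndufa12 was 0.31 ± 0.09 in 61R/R MEFs (SE, adjusted p = 0.0356) and 0.28 ± 0.09 in 61H/H MEFs (adjusted p = 0.0373), against 0.13 in 61P/P MEFs (adjusted p = 0.378). With the length trend removed neither was called (adjusted p = 0.107 and 0.116), and the 61H/H call was also lost without any 61H/H library or 61Q/Q replicate 1 or 3.

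The core subunits of complex I that carry flavin and iron-sulfur centres showed smaller differences. Ndufs1, the largest iron-sulfur subunit, was read at 77.4, 85.5 and 81.4 CPM in 61R/R MEFs, 83.9, 86.0 and 82.7 in 61H/H MEFs, 71.5, 75.3 and 80.6 in 61P/P MEFs, and 72.0, 76.2 and 74.8 in 61Q/Q MEFs. It was higher in 61H/H MEFs (log2 fold change 0.18 ± 0.06, adjusted p = 0.0374), where no library overlapped 61Q/Q, but this call was lost when any 61H/H library was left out (adjusted p = 0.0923, 0.111 and 0.0659 without replicates 1, 2 and 3), without 61Q/Q replicate 1 (0.125) or 3 (0.0937), and by a small margin without 61R/R replicate 3 (0.0524) or 61P/P replicate 2 (0.0509). Ndufv1, the subunit that binds NADH and the flavin, did not pass in any comparison with 61Q/Q, with log2 fold changes of 0.12 in 61R/R MEFs, 0.16 in 61H/H MEFs (adjusted p = 0.0968) and 0.07 in 61P/P MEFs. Ndufb8 had 41.8, 45.4 and 43.5 CPM in 61R/R MEFs, 41.7, 41.7 and 43.2 in 61H/H MEFs, 44.3, 42.9 and 42.0 in 61P/P MEFs, and 35.7, 40.5 and 39.2 in 61Q/Q MEFs. This membrane-arm subunit, whose protein is often used as a marker of assembled complex I, stood above 61Q/Q in every mutant library, with a call in 61R/R MEFs (0.18 ± 0.06, adjusted p = 0.0485; 0.511 with the length trend removed). The other calls were Ndufs6 in 61R/R MEFs (0.28 ± 0.09, adjusted p = 0.0493) and Ndufa2 (0.20 ± 0.07, adjusted p = 0.0468) and Ndufa10 (0.16 ± 0.05, adjusted p = 0.0489) in 61H/H MEFs. Those of Ndufa2 and Ndufa10 were lost without any 61H/H or 61Q/Q library, 61R/R replicate 3 or 61P/P replicate 3, and all 3 with the length trend removed. These 4 calls lay near the threshold, and each was also lost with RLE scaling, in limma-voom and with no filter on low counts (adjusted p between 0.0503 and 0.0695).

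Complex II, succinate dehydrogenase, is the one complex with no mitochondrially encoded subunit and belongs to the citric acid cycle as well. All 4 of its genes were called higher in 61H/H MEFs than in 61Q/Q MEFs, where 13.8% of all genes were. Sdha, the flavoprotein, had 194, 213 and 213 CPM in 61R/R MEFs, 208, 213 and 214 in 61H/H MEFs, 199, 207 and 205 in 61P/P MEFs, and 186, 192 and 190 in 61Q/Q MEFs, so that every mutant library was above every 61Q/Q library. Sdhb, the iron-sulfur subunit, had 50.1, 53.1 and 56.3 CPM in 61R/R MEFs, 57.5, 53.6 and 57.6 in 61H/H MEFs, 50.1, 49.7 and 49.9 in 61P/P MEFs, and 49.7, 50.5 and 50.5 in 61Q/Q MEFs. Here 61H/H stood above both 61P/P and 61Q/Q, while the 61P/P and 61Q/Q libraries overlapped.

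Sdhc and Sdhd are the membrane anchors and help form the ubiquinone site. Sdhc was read at 67.6, 74.8 and 73.8 CPM in 61R/R MEFs, 78.8, 75.6 and 78.4 in 61H/H MEFs, 74.5, 72.99 and 72.0 in 61P/P MEFs, and 70.5, 66.5 and 68.1 in 61Q/Q MEFs. Sdhd was read at 52.3, 63.0 and 57.3 CPM in 61R/R MEFs, 62.2, 59.3 and 58.6 in 61H/H MEFs, 53.0, 56.3 and 57.7 in 61P/P MEFs, and 51.4, 52.2 and 51.6 in 61Q/Q MEFs. For all 4 genes the 61H/H libraries lay above those of 61Q/Q and those of 61P/P without overlap. Of all genes 24.5% lay above 61Q/Q and 17.0% above 61P/P in this way. In 61H/H against 61Q/Q the log2 fold change was 0.16 ± 0.05 for Sdha (adjusted p = 0.0307), 0.16 ± 0.05 for Sdhb (0.0368), 0.18 ± 0.05 for Sdhc (0.0232) and 0.21 ± 0.06 for Sdhd (0.0305). In 61R/R the 4 values ran between 0.08 and 0.15 and none passed (smallest adjusted p, 0.0901). There 2 of the 4 had an unadjusted p under 0.05, as did 5678 of 15759 genes in all. DESeq2 called 1 of the 4 in 61R/R MEFs, Sdha, where it called 26.8% of all genes. For 61P/P MEFs none passed either (smallest adjusted p, 0.19), and 0 had an unadjusted p under 0.05. The direct comparison of 61H/H with 61P/P gave 0.06 for Sdha, 0.17 for Sdhb (adjusted p = 0.0812), 0.09 for Sdhc and 0.11 for Sdhd, none of which passed.

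The complex II calls in 61H/H MEFs rested on single libraries. Those of Sdha and Sdhd were lost when any 61H/H library or 61Q/Q replicate 1 or 3 was left out, that of Sdhb without 61R/R replicate 2, 61H/H replicate 1 or 3, or 61Q/Q replicate 1 or 3, and that of Sdhc without 61H/H replicate 1 or 3 or 61Q/Q replicate 3. With the length trend removed the call of Sdha remained and those of Sdhb, Sdhc and Sdhd were lost.

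Complex III passes electrons from ubiquinol to cytochrome c. Its median log2 fold change relative to 61Q/Q was 0.07 in 61R/R MEFs, 0.12 in 61H/H MEFs and 0.01 in 61P/P MEFs, and 2, 2 and 0 of its 8 genes were higher (2 in 61P/P MEFs at an unadjusted p under 0.05). The genes called were the same small accessory subunits in 61R/R MEFs and 61H/H. Uqcrh, the hinge protein near the cytochrome c site, had 54.5, 63.4 and 65.4 CPM in 61R/R MEFs, 60.0, 64.4 and 65.3 in 61H/H MEFs, 54.0, 58.6 and 58.8 in 61P/P MEFs, and 52.9, 51.4 and 52.8 in 61Q/Q MEFs. Uqcr11 had 39.7, 46.2 and 47.8 CPM in 61R/R MEFs, 41.9, 42.9 and 44.5 in 61H/H MEFs, 38.0, 43.2 and 40.6 in 61P/P MEFs, and 34.9, 37.6 and 35.3 in 61Q/Q MEFs. For both genes all 9 mutant libraries were above all 3 of 61Q/Q.

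Uqcr11 differed from 61Q/Q by a log2 fold change of 0.31 ± 0.07 in 61R/R MEFs (adjusted p = 0.0225) and 0.26 ± 0.07 in 61H/H MEFs (adjusted p = 0.0235), against 0.18 in 61P/P MEFs (adjusted p = 0.153). Uqcrh differed by 0.22 ± 0.07 in 61R/R MEFs (adjusted p = 0.0464) and 0.27 ± 0.07 in 61H/H MEFs (adjusted p = 0.0165), against 0.13 in 61P/P MEFs (adjusted p = 0.27). Both also passed the test across the 4 genotypes (adjusted p = 0.0379 for Uqcr11 and 0.0492 for Uqcrh). With the length trend removed neither was called in 61R/R MEFs (0.074 and 0.378) or in 61H/H MEFs (0.0948 and 0.0791). The Uqcrh call in 61R/R MEFs was the weakest of these: it was lost in the limma-voom fit (adjusted p = 0.0507) and without any library other than 61R/R replicate 1 or 61P/P replicate 1. In 61H/H the Uqcr11 call was lost without any 61H/H library or 61Q/Q replicate 1 or 3, and the Uqcrh call without 61H/H replicate 2 or 3 or 61Q/Q replicate 3.

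The large and catalytic subunits of complex III did not pass. Uqcrc1, a core subunit, had log2 fold changes of 0.10 in 61R/R MEFs, 0.09 in 61H/H MEFs and -0.01 in 61P/P MEFs. Uqcrfs1, the Rieske iron-sulfur protein that takes electrons from ubiquinol, had 53.1, 60.5 and 59.4 CPM in 61R/R MEFs, 59.1, 60.4 and 58.8 in 61H/H MEFs, 46.4, 54.7 and 54.5 in 61P/P MEFs, and 51.9, 51.2 and 52.3 in 61Q/Q MEFs. Its 61R/R and 61H/H libraries were all above those of 61Q/Q, with log2 fold changes of 0.15 (adjusted p = 0.132) and 0.20 ± 0.07 (adjusted p = 0.0522). Uqcrq, singled out after its values were seen, went the other way, with log2 fold changes of -0.12 in 61R/R MEFs, -0.21 in 61H/H MEFs (adjusted p = 0.0662) and -0.19 in 61P/P MEFs, none of which passed. It was called lower in 61H/H MEFs by DESeq2 (adjusted p = 0.0487) and with a minimum of 1 CPM in each library (0.0454), and with the length trend removed it was lower in 61R/R MEFs (0.0399), 61H/H MEFs (0.012) and 61P/P MEFs (0.0476).

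Complex IV, cytochrome c oxidase, takes the electrons to oxygen. Its 16 genes had a median log2 fold change of 0.07 in 61R/R MEFs, 0.09 in 61H/H MEFs and 0.01 in 61P/P MEFs. In 61R/R 1 was higher and 1 lower, in 61H/H MEFs 2 and 2, and in 61P/P MEFs 1 and 0. Cox4i1, the most abundant of them and a subunit that binds regulatory nucleotides, gave 0.04, -0.01 and -0.05. Cox5a gave 0.04 in 61R/R MEFs, 0.12 in 61H/H MEFs and -0.15 in 61P/P MEFs. Its libraries had 61.6, 63.6 and 60.0 CPM in 61R/R MEFs, 65.9, 69.7 and 60.2 in 61H/H MEFs, 48.1, 55.2 and 59.1 in 61P/P MEFs, and 60.4, 59.0 and 60.9 in 61Q/Q MEFs, so that 61H/H lay above 61P/P without overlap (0.27 ± 0.08, adjusted p = 0.0692). Cox7b was higher in 61H/H MEFs, with 67.4, 72.3 and 74.7 CPM in 61R/R MEFs, 79.1, 76.2 and 77.9 in 61H/H MEFs, 65.0, 69.2 and 72.0 in 61P/P MEFs, and 65.3, 70.7 and 63.0 in 61Q/Q MEFs (0.23 ± 0.06 in 61H/H MEFs, adjusted p = 0.0193, and 0.068 with the length trend removed). Leaving out 61H/H replicate 1 (0.0683), 61Q/Q replicate 1 (0.0687) or 61Q/Q replicate 3 (0.0835) ended that call.

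Cox6a1 was lower in 61H/H MEFs, and in the edgeR test of all 12 libraries no other subunit gene averaging 1 CPM or more was called lower in a mutant, though Uqcrq was under the alternatives given for it. It encodes the widely expressed form of subunit VIa and had 105, 103 and 105 CPM in 61R/R MEFs, 93.3, 97.9 and 108 in 61H/H MEFs, 110, 106 and 110 in 61P/P MEFs, and 114, 110 and 123 in 61Q/Q MEFs. The 61R/R and 61H/H libraries were all below those of 61Q/Q, and the 61P/P libraries overlapped them. The log2 fold change was -0.15 ± 0.06 in 61R/R MEFs (adjusted p = 0.111), -0.21 ± 0.06 in 61H/H MEFs (adjusted p = 0.0253) and -0.08 in 61P/P MEFs. With the length trend removed it was lower in 61R/R MEFs as well (-0.29, adjusted p = 0.025). The 61H/H call was lost without 61H/H replicate 1 (0.105) or 2 (0.0829) or 61Q/Q replicate 1 (0.0596) or 3 (0.108).

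Its paralog Cox6a2, the heart and skeletal muscle form, was lower as well but at a level near the limit of detection. Per kilobase the average was 201 CPM for Cox6a1 and 0.203 for Cox6a2. Cox6a2 had 8, 4 and 0 reads in 61R/R MEFs, 2, 2 and 11 in 61H/H MEFs, 6, 6 and 4 in 61P/P MEFs, and 28, 28 and 29 in 61Q/Q MEFs, that is 0.0963, 0.0449 and 0 CPM, 0.0235, 0.0232 and 0.115 CPM, 0.0734, 0.0814 and 0.0473 CPM, and 0.394, 0.341 and 0.365 CPM in the same order. Every mutant library was below every 61Q/Q library. The fitted log2 fold change was -2.95 ± 0.71 in 61R/R MEFs (adjusted p = 0.0234), -2.69 ± 0.69 in 61H/H MEFs (adjusted p = 0.0166) and -2.43 ± 0.68 in 61P/P MEFs (adjusted p = 0.0557, and 0.0217 by DESeq2). Leaving out 61Q/Q replicate 1 or 3 ended the call in 61R/R MEFs (0.085 and 0.0916) and in 61H/H MEFs (0.051 and 0.0527), as did 61R/R replicate 2 (0.108) or 3 (0.0954) and 61H/H replicate 1 (0.0678) or 2 (0.0658).

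Other readings moved with Cox6a2. Exons of Itgad, an integrin gene on the opposite strand, overlap 10.5% of its exon bases, and Itgad had 9, 1 and 2 reads in 61R/R MEFs, 0, 0 and 3 in 61H/H MEFs, 30, 4 and 4 in 61P/P MEFs, and 24, 29 and 36 in 61Q/Q MEFs. The 61P/P replicate 1 library was high for Itgad and low for Cox6a2, so the 2 genes did not move together in that library. Whether the counting used strand was not given in the sources used here. The 23 striated muscle markers also summed highest in 61Q/Q MEFs: 52.3 to 101 CPM in 61R/R MEFs, 51.5 to 65.2 in 61H/H MEFs, 46.2 to 74.9 in 61P/P MEFs and 117 to 125 in 61Q/Q MEFs. Most of that sum was Acta1, skeletal actin, and the defining muscle genes Myod1, Myog and Ckm were at or near 0 with 22, 22 and 18 reads over all 12 libraries. Of the 13 markers that could be tested none was higher, and 2 were lower in 61R/R MEFs (Acta1 and Myh7), 2 in 61H/H MEFs (Acta1 and Tnnt2) and 1 in 61P/P MEFs (Acta1). Tnnt2, cardiac troponin T, averaged 0.912 CPM in 61R/R MEFs, 0.648 in 61H/H MEFs, 0.801 in 61P/P MEFs and 2.57 in 61Q/Q MEFs, and Myh7, a slow and cardiac myosin, 0.0376, 0.0660, 0.0263 and 0.264 CPM in the same genotypes. The part of these readings in the Cox6a2 result was not tested.

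Cox6b2, described as the testis form of subunit VIb, was the only one of the 80 genes called higher in all 3 mutants. It had 5.00, 8.03 and 6.98 CPM in 61R/R MEFs, 7.08, 7.18 and 7.73 in 61H/H MEFs, 8.24, 6.76 and 5.59 in 61P/P MEFs, and 4.46, 4.24 and 4.39 in 61Q/Q MEFs, on 317 to 737 reads per library. All 9 mutant libraries were above all 3 of 61Q/Q, with 61R/R replicate 1 the nearest to them. The log2 fold change was 0.61 ± 0.17 in 61R/R MEFs (adjusted p = 0.0344), 0.75 ± 0.17 in 61H/H MEFs (adjusted p = 0.0108) and 0.65 ± 0.17 in 61P/P MEFs (adjusted p = 0.0471). The call in 61H/H MEFs held with each of the 12 libraries left out in turn. That in 61P/P MEFs was lost without any library other than 61R/R replicate 1 or 2 or 61P/P replicate 3 (up to 0.154, without 61Q/Q replicate 3), in limma-voom (0.0669) and with the length trend removed (0.0558). That in 61R/R MEFs was lost with the length trend removed (0.0553) and without 61R/R replicate 2 (0.148) or 3 (0.12), 61H/H replicate 2 (0.0515), or 61Q/Q replicate 1 (0.103), 2 (0.0507) or 3 (0.112). The widely expressed paralog Cox6b1, at 186 CPM per kilobase against 10.2 for Cox6b2, gave log2 fold changes of -0.01 in 61R/R MEFs, 0.06 in 61H/H MEFs and -0.05 in 61P/P MEFs.

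Cox4i2, the form of subunit IV known from lung and from hypoxia, had its highest readings in 61P/P MEFs. It had 18, 26 and 27 reads in 61R/R MEFs, 21, 24 and 26 in 61H/H MEFs, 71, 25 and 41 in 61P/P MEFs, and 17, 12 and 22 in 61Q/Q MEFs, or 0.217, 0.292 and 0.2997 CPM, 0.247, 0.278 and 0.273 CPM, 0.869, 0.339 and 0.485 CPM, and 0.239, 0.146 and 0.277 CPM. The 61P/P libraries were above all others but differed among themselves, with replicate 1 far above replicates 2 and 3. It passed the test across the 4 genotypes (adjusted p = 0.0488), while 61P/P against 61Q/Q gave a log2 fold change of 1.35 ± 0.37 with an adjusted p of 0.052 (0.019 by DESeq2). In 61R/R and 61H/H it gave 0.29 and 0.27, neither of which passed.

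The remaining paralogs showed no call against 61Q/Q. Cox7a1, the muscle form of subunit VIIa, stood at 1.49 CPM per kilobase beside 75.6 for Cox7a2, the widely expressed form, and 75.1 for Cox7a2l, which takes part in joining complexes III and IV into supercomplexes. Log2 fold changes of Cox7a2 were 0.17 in 61R/R MEFs, 0.20 in 61H/H MEFs (adjusted p = 0.0723) and 0.07 in 61P/P MEFs, and those of Cox7a2l were -0.02, 0.06 and -0.16. Ndufa4, named for complex I but found in complex IV, stood at 158 CPM per kilobase, and its hypoxia-induced paralog Ndufa4l2 at 0.222. Ndufa4l2 gave -0.19 in 61R/R MEFs, -1.07 ± 0.59 in 61H/H MEFs (adjusted p = 0.189) and -0.44 in 61P/P MEFs.

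**Figure D4:**
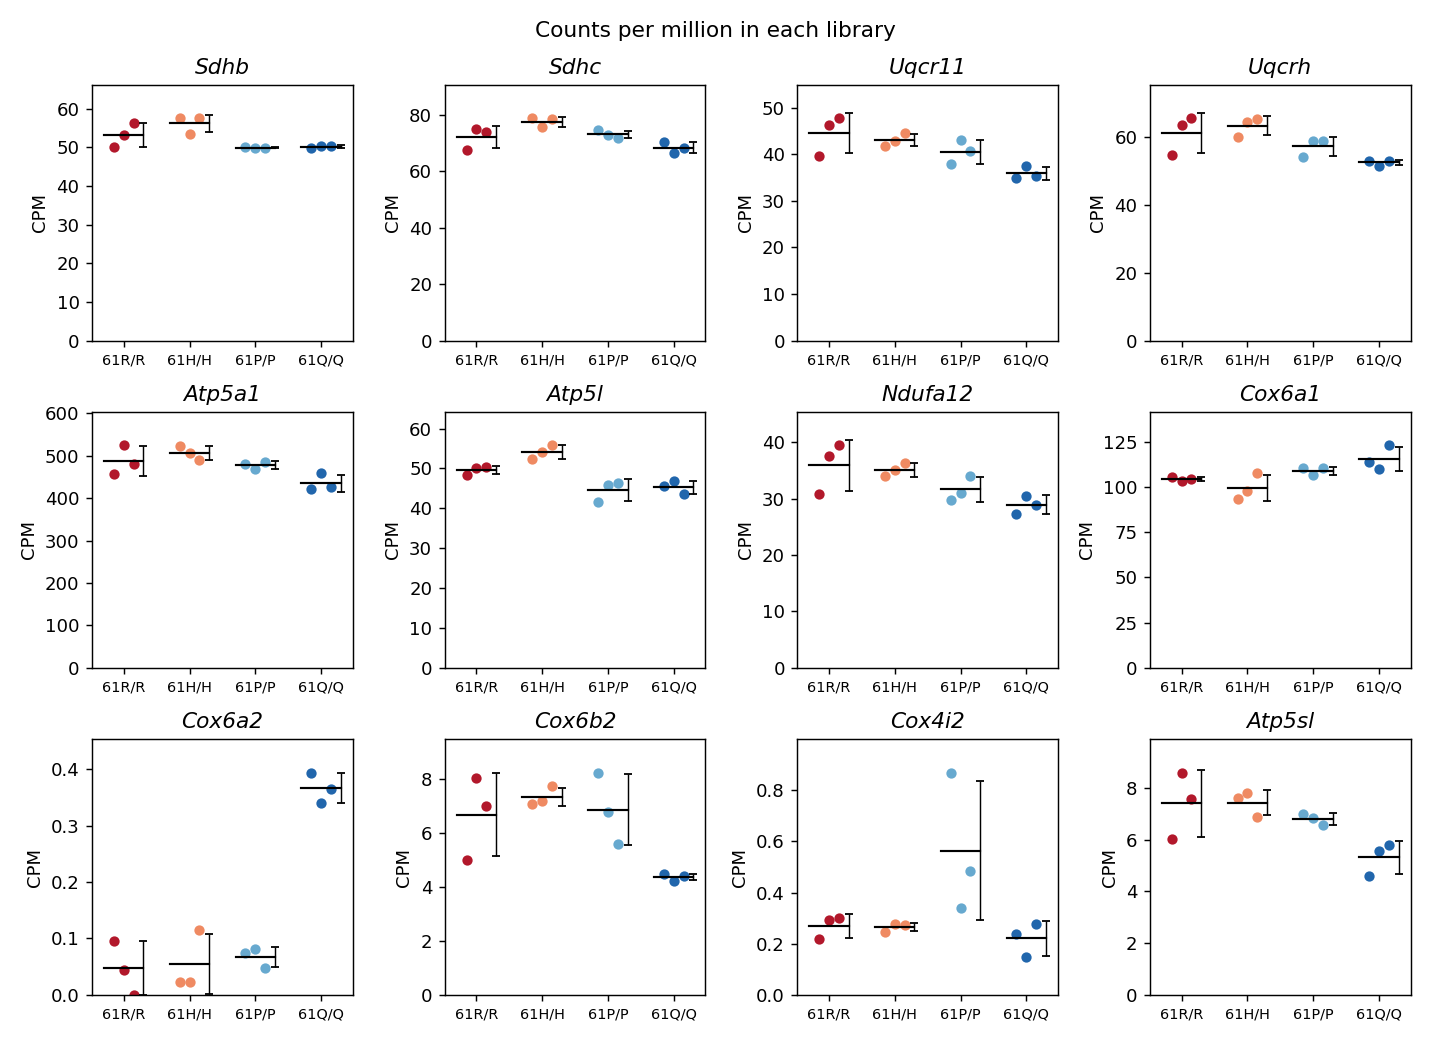
CPM of 12 genes in each library (points), with the mean (line) and SD (bar) of the 3 libraries of each genotype; each panel has its own axis from 0. Cox6a2 is highest in 61Q/Q MEFs, Cox6b2 and Uqcr11 are lowest there, Cox4i2 is highest in 61P/P MEFs, and Atp5l is highest in 61H/H MEFs.

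Complex V, the ATP synthase, is the enzyme that makes the ATP. All 15 of its genes had log2 fold changes above 0 in 61R/R MEFs and in 61H/H MEFs and 12 did in 61P/P MEFs, with medians of 0.16, 0.16 and 0.12. Of them 1, 4 and 0 were called, all higher (6.67%, 26.7% and 0.0%), where 9.43%, 13.8% and 3.15% of all genes were higher. In 61P/P MEFs 3 of the 15 had an unadjusted p under 0.05, as did 4270 of 15759 genes in all. The summed level of the 15 genes was 2341 ± 109 CPM in 61R/R MEFs, 2372 ± 16.3 in 61H/H MEFs, 2224 ± 73.8 in 61P/P MEFs and 2155 ± 51.7 in 61Q/Q MEFs (mean ± SD, n = 3 each).

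Atp5a1 and Atp5b encode the alpha and beta subunits of the catalytic head. Atp5a1 had 456, 525 and 482 CPM in 61R/R MEFs, 523, 506 and 490 in 61H/H MEFs, 481, 468 and 486 in 61P/P MEFs, and 422, 459 and 426 in 61Q/Q MEFs. The 61H/H and 61P/P libraries were all above those of 61Q/Q, and 61R/R overlapped them through its replicate 1. Its log2 fold change was 0.16 in 61R/R MEFs (adjusted p = 0.0803), 0.22 ± 0.06 in 61H/H MEFs (adjusted p = 0.0234) and 0.14 in 61P/P MEFs (adjusted p = 0.176). The 61H/H call was lost without 61H/H replicate 1 (0.0876) or 2 (0.0643) or 61Q/Q replicate 1 (0.0862) or 3 (0.0869). Atp5b gave 0.06, 0.08 and -0.05, none of which passed.

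Atp5l encodes subunit g of the membrane sector, at the dimer interface of the enzyme, and had the smallest adjusted p of the 80 genes in the test across the 4 genotypes (0.0146). It had 48.4, 50.03 and 50.2 CPM in 61R/R MEFs, 52.4, 54.2 and 55.8 in 61H/H MEFs, 41.5, 45.9 and 46.4 in 61P/P MEFs, and 45.6, 46.8 and 43.5 in 61Q/Q MEFs. The 61H/H libraries were above those of every other genotype, the 61R/R libraries were above 61P/P and 61Q/Q, and 61P/P and 61Q/Q overlapped. Its log2 fold change was 0.13 ± 0.05 in 61R/R MEFs (adjusted p = 0.111), 0.26 ± 0.05 in 61H/H MEFs (adjusted p = 0.00805) and -0.02 in 61P/P MEFs (adjusted p = 0.839). It was also the only one of the 80 genes that passed between 61H/H and 61P/P, with 0.28 ± 0.05 (adjusted p = 0.0358). That call was lost in 8 of the 12 fits that left out a library (adjusted p up to 0.155, without 61H/H replicate 2) and in a fit of only those genotypes (0.052). The 61H/H call against 61Q/Q held with each library left out in turn but not with the length trend removed (adjusted p = 0.127).

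Among the other subunits of complex V, Atp5d, the delta subunit of the central stalk, was higher in 61H/H MEFs (0.18 ± 0.06, adjusted p = 0.0418), as was Atp5j, coupling factor 6 of the outer stalk (0.27 ± 0.08, adjusted p = 0.0287). For Atp5j 13.6% of exon bases overlap the opposite-strand gene Gabpa. Both calls were lost with the length trend removed and without any 61H/H library or 61Q/Q replicate 1 or 3, and that of Atp5d also without 61R/R replicate 2 or 3 or 61P/P replicate 2. The paralogs Atp5g1, Atp5g2 and Atp5g3 encode the same mature c subunit of the proton-carrying ring and stood at 59.8, 70.1 and 180 CPM per kilobase. Atp5g2 was higher in 61R/R MEFs (0.26 ± 0.08, adjusted p = 0.0432) and gave 0.22 in 61H/H MEFs (adjusted p = 0.0554), Atp5g1 gave 0.16 and 0.10, and Atp5g3 gave 0.14 and 0.16, with no call. Atp5k, the shortest of the 80 genes, had 14.2, 18.7 and 26.4 CPM in 61R/R MEFs, 17.0, 15.1 and 25.9 in 61H/H MEFs, 20.3, 22.04 and 16.4 in 61P/P MEFs, and 14.2, 16.3 and 14.4 in 61Q/Q MEFs. Its reading was high in 61R/R replicate 3 and 61H/H replicate 3 and it passed in no comparison.

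Of the 3 genes that share a symbol with the complexes without being a usual subunit, Atp5sl (called Dmac2 in RefSeq, an assembly factor of complex I) was higher in both melanomagenic genotypes. It had 6.03, 8.59 and 7.58 CPM in 61R/R MEFs, 7.62, 7.81 and 6.87 in 61H/H MEFs, 7.00, 6.83 and 6.56 in 61P/P MEFs, and 4.58, 5.58 and 5.78 in 61Q/Q MEFs, with every mutant library above every 61Q/Q library. The log2 fold change was 0.48 ± 0.13 in 61R/R MEFs (adjusted p = 0.0334), 0.48 ± 0.13 in 61H/H MEFs (adjusted p = 0.0215) and 0.36 in 61P/P MEFs (adjusted p = 0.116). The 61H/H call was lost without 61H/H replicate 1 (0.0678) or 2 (0.0706) or 61Q/Q replicate 1 (0.085).

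Direct comparisons of the mutants gave few calls. In 61R/R against 61P/P 0 of the 80 genes passed (smallest adjusted p, 0.118; 5 at an unadjusted p under 0.05; 0 by DESeq2 and by limma-voom), where 3.45% of all genes did, and the median log2 fold change was 0.06. Without 61R/R replicate 1 that median was 0.11 and 2 genes passed. In 61H/H against 61P/P Atp5l alone passed (2.49% of all genes), with a median of 0.04 over the 80. DESeq2 called 3 of the 80 in this comparison, and 12.2% of all genes. The call count there was 0 when 61R/R replicate 3, any 61H/H library, 61P/P replicate 1 or 2, or 61Q/Q replicate 1 or 3 was left out, and 2 without 61R/R replicate 1 or 61P/P replicate 3.

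With both melanomagenic genotypes set against both non-melanomagenic genotypes, 14 of the 80 genes were higher and 2 were lower, where 14.2% of all genes were higher and 14.6% were lower. The median log2 fold change was 0.09, against 0.00 over all genes, and 69 of the 80 were above 0. The smallest adjusted p was that of Atp5l (0.20 ± 0.04, 0.00519), followed by Atp5d (0.17 ± 0.04, 0.0152), Uqcr11 (0.20 ± 0.05, 0.0181) and Uqcrh (0.18 ± 0.05, 0.0191). Sdhb (0.13 ± 0.04, 0.0252) and Uqcrfs1 (0.18 ± 0.05, 0.0225) passed here as well, and the 2 lower genes were Cox6a1 and Cox6a2. The count of 16 depended on single libraries. It was 32 without 61R/R replicate 1, 3 without replicate 2 and 2 without replicate 3. It was also 6 without 61H/H replicate 1 or 2, 10 without 61P/P replicate 1, 8 without 61P/P replicate 2, and 4 and 7 without 61Q/Q replicates 1 and 3. The share of all genes called was 28.8% with every library kept. It was 33.3%, 17.1% and 16.5% without 61R/R replicates 1, 2 and 3, and 17.7% to 24.3% without the other libraries named. In the test across all 4 genotypes 6 of the 80 passed (Uqcr11, Uqcrh, Cox4i2, Cox6a2, Cox6b2 and Atp5l), or 7.5%, where 23.8% of all genes did. That count was 22 without 61R/R replicate 1, 2 without 61R/R replicate 3 or 61H/H replicate 1 or 2, 3 without 61H/H replicate 3, 1 and 0 without 61Q/Q replicates 1 and 3, and DESeq2 gave 17.

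The promoters of respiratory subunits are known for sites of NRF1, of the ETS factor GABP (also called NRF2) and of YY1. A window from 250 bases before to 50 bases after the start was read from RefSeq (GRCm38.p6) for the 66 genes with an entry, and searched on both strands for exact letters. GCGCATGCG (NRF1) was found for 8 of the 66 genes (12.1%, against 2.61% of 17492 protein-coding genes and 1.75% of all 32851 promoters). CCGGAAG (ETS) was in 16 (24.2%, against 12.9% of coding genes and 8.86% of all promoters), and AAGATGGCG (YY1) in 8 (12.1%, against 2.14% and 1.40%). TGACGTCA (CREB) was in 4 (6.06%, against 2.54% and 1.79%) and CACGTG (E-box, bound by MYC among others) in 7 (10.6%, against 8.91% and 7.15%). A match is a description of letters and not a site shown to be bound.

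Windows are shown for 5 genes of complexes II, III and V, so that the letters can be read beside the values. These genes were chosen from those whose levels are given above and whose windows hold the ETS letters. Of other genes of these complexes described above, Sdha, Uqcrc1, Uqcrfs1, Atp5b, Atp5d and Atp5g2 have windows without those letters. Atp5j, which has 2 windows, and Atp5k also hold the letters and are not shown. Each gene shown was called higher in a mutant than in the wild-type genotype, while Atp5k passed in no comparison. The letters are thus shown beside called genes only, and no link between letters and calls was tested. The windows shown run 5′ to 3′ on the strand of the gene, with matches in capitals. CCGGAAG or its reverse complement CTTCCGG stands in all of them by that choice, CGCATGCGC, which holds GCGCATGCG in reverse, in Uqcr11 and Atp5l, and CACGTG in Atp5l. The first is Sdhb on the plus strand at chr4:140961021-140961320, the next are Sdhd on the minus strand at chr9:50603800-50604099, Uqcr11 on the minus strand at chr10:80406772-80407071 and Uqcrh on the minus strand at chr4:116075021-116075320, and the last is Atp5l on the minus strand at chr9:44920693-44920992.
Sdhb: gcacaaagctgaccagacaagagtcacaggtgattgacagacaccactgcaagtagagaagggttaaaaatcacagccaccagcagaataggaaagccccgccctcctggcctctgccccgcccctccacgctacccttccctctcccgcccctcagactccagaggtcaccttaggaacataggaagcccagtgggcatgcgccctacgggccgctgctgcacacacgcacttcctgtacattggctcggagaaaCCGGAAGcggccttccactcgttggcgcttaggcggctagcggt
Sdhd: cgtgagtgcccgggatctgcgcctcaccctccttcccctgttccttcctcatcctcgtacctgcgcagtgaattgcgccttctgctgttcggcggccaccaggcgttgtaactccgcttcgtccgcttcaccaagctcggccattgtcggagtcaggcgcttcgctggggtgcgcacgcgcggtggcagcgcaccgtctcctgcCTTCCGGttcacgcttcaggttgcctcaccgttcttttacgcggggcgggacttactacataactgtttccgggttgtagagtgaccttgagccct
Uqcr11: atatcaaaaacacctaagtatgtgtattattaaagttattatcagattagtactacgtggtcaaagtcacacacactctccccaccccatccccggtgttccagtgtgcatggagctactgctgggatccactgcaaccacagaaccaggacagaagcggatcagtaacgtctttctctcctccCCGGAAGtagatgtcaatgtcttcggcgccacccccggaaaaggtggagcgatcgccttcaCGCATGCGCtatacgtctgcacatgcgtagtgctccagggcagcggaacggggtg
Uqcrh: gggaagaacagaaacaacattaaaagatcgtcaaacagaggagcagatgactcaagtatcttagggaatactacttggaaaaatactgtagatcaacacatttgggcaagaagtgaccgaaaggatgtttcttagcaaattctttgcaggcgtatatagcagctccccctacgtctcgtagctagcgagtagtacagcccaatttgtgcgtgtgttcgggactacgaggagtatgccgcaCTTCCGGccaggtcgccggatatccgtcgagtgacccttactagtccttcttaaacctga
Atp5l: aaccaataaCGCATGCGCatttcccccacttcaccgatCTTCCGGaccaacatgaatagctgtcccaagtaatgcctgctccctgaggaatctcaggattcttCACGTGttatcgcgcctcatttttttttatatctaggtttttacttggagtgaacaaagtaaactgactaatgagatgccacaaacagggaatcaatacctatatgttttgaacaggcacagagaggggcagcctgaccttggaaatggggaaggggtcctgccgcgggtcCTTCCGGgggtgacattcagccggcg

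Genes that act beside the complexes were read from lists of the same pathway. Of 18 genes of the citric acid cycle and pyruvate dehydrogenase, 4 were higher in 61R/R MEFs, 7 in 61H/H MEFs and 1 in 61P/P MEFs and none was lower (22.2%, 38.9% and 5.56%, where 9.43%, 13.8% and 3.15% of all genes were higher), with medians of 0.10, 0.15 and 0.01. Suclg2, a subunit of succinyl-CoA ligase, which makes the succinate that complex II oxidizes, rose by a log2 fold change of 0.57 ± 0.10 in 61R/R MEFs (adjusted p = 0.0194) and 0.64 ± 0.10 in 61H/H MEFs (adjusted p = 0.0043). Idh2, the NADP-dependent mitochondrial isocitrate dehydrogenase, rose in all 3 mutants, by 0.36 in 61R/R MEFs, 0.47 in 61H/H MEFs and 0.43 in 61P/P MEFs (adjusted p = 0.0443, 0.0119 and 0.0452), and Pdhb of pyruvate dehydrogenase by 0.22 in 61R/R MEFs and 0.27 in 61H/H MEFs. The median counted length of this list is 2340.5 bases, and with the length trend removed 2, 6 and 0 genes were called. The count in 61H/H MEFs was 2 without 61H/H replicate 1 or 61Q/Q replicate 1 or 3, 4 without 61H/H replicate 2, and 5 to 8 without any other library. For 61R/R, leaving out its replicate 1 gave 8 called genes, and leaving out replicate 2 or 3 of 61H/H or of 61P/P gave 2.

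Of 20 carriers and dehydrogenases that feed ubiquinone and cytochrome c, 2 were higher and 1 lower in 61R/R MEFs, 3 and 1 in 61H/H MEFs, and 1 and 0 in 61P/P MEFs. The shares called higher were near those of all genes. Ndufab1, a complex I subunit outside the symbol pattern, was in this list and rose by 0.34 ± 0.11 in 61R/R MEFs (adjusted p = 0.0468). Gpd2, the mitochondrial glycerol-3-phosphate dehydrogenase, rose by 0.65 ± 0.17 in 61R/R MEFs (adjusted p = 0.026) and 0.68 ± 0.17 in 61H/H MEFs (adjusted p = 0.0132). Sqrdl, sulfide quinone oxidoreductase, rose by 0.94 ± 0.20 in 61H/H MEFs (adjusted p = 0.00753) and 0.82 ± 0.20 in 61P/P MEFs (adjusted p = 0.0367), and Coq10b, a ubiquinone-binding protein, fell by 0.55 in 61R/R MEFs and by 0.54 in 61H/H MEFs on the log2 scale (adjusted p = 0.0208 and 0.0108). Without 61R/R replicate 1, and also without 61Q/Q replicate 2, 8 genes of this list were called in 61R/R MEFs.

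Assembly factors were called in small numbers. Of 15 factors of complex I, 3 were higher in 61R/R MEFs, 4 in 61H/H MEFs and 2 in 61P/P MEFs, with none lower (20.0%, 26.7% and 13.3%, beside the same shares of all genes). Atp5sl, counted above among the 80, is 1 of these in 61R/R MEFs and 1 in 61H/H MEFs. Acad9 rose by 0.32 ± 0.07 in 61R/R MEFs and 0.40 ± 0.07 in 61H/H MEFs (adjusted p = 0.0194 and 0.0043), and Ndufaf1 by 0.66 ± 0.14 in 61P/P MEFs (adjusted p = 0.0283). No factor of complex II (of 4) was called in any mutant by edgeR, DESeq2 or limma-voom, with 0, 0 and 1 at an unadjusted p under 0.05. Of all 15759 genes 5678, 6658 and 4270 had such a p in the same comparisons (edgeR). Of 6 factors of complex III Uqcc2 was higher in 61H/H MEFs, and of 21 factors of complex IV Coa7 was higher in 61R/R MEFs and Coa6 in 61H/H MEFs (4.76% in each, under the share of all genes). Of 4 factors of complex V, Atpaf2 was higher in 61R/R MEFs and 61H/H (0.28 in each) and Atpaf1 in 61H/H MEFs (0.32), while Tmem70, which helps build the c ring, fell by 0.22 in 61H/H MEFs and by 0.40 in 61P/P MEFs on the log2 scale (adjusted p = 0.0281 and 0.0188). In all of these lists together, no call in 61R/R MEFs remained when 61R/R replicate 2 or 3 or 61Q/Q replicate 1 or 3 was left out. In 61H/H the calls of Suclg2, Pdhb, Sqrdl, Coq10b and Acad9 held with each library left out in turn, and those of Idh2, Gpd2, Uqcc2, Coa6, Atpaf1, Atpaf2 and Tmem70 were each lost without at least 1. The 61P/P calls of Idh2, Sqrdl, Ndufaf1 and Tmem70 were each lost without 61Q/Q replicate 1 or 3.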

How the data were processed

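Primary MEFs of 4 Nras genotypes were profiled by stranded total RNA sequencing after rRNA depletion, 3 libraries each. The authors aligned reads to mm10 with STAR and deposited raw read counts per gene, made with featureCounts; Picard 2.17.11 and DESeq2 are also named in the submitters' processing notes. Whether counting used strand, and how duplicates were treated, was not given in the sources used here. Gene coordinates and counted lengths are those of the count table.

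Counts were analysed in R 4.3.3 with edgeR 4.0.16: TMM scaling, filterByExpr by genotype (15759 genes kept, all 80 subunit genes among them), a quasi-likelihood fit of all 12 libraries by genotype, and F tests for each pair of genotypes, for both melanomagenic against both non-melanomagenic genotypes, and across the 4. Benjamini-Hochberg adjustment ran over every tested gene, and an adjusted p under 0.05 was a call. SEs were derived from the F statistic. CPM is the count scaled to a common library size after TMM; levels of different genes were compared per kilobase of counted exon. The biological coefficient of variation was 15.7%. The ribosomal gene Rn45s took 8.89% to 13.9% of counts.

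On simulated counts with the same spread for every gene, the test recovered 195 of 200 genes changed by 2-fold among 15545, and called 11 others. Most changes described above are smaller than 2-fold, and recovery at their size was not tested. Same-numbered replicates deviated together in 6 of 18 pairs (correlation over 0.1, with a range of -0.08 to 0.34). The labels name no pairing beyond a replicate number, and the number was not used as a pairing in the main fit. Alternatives were RLE and upper-quartile scaling, Rn45s removed, no filter on low counts, a minimum of 1 CPM in each library, a replicate block, only the compared genotypes, DESeq2 1.42.0, limma-voom (limma 3.58.1), a per-library trend on gene length as an offset, and each library left out.

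The genes and lists were chosen with earlier results of these data known. Genes were named by rule: up to 8 called genes with the smallest p against 61Q/Q, the leading gene of each complex, core subunits, paralogs, and up to 3 called genes of each further list; other named genes were chosen after their values were seen. The study describes the libraries as biological replicates and its cultured samples as MEF lines from different embryos; which embryos shared a litter was not given in the sources used here. Figures were drawn with matplotlib 3.10.9 under Python 3.11.15.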

Additional observations from a re-analysis of the deposited data

Results flagged for a closer look

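Atp5l, the gene of subunit g of ATP synthase, is listed because its changes relative to 61Q/Q differed between 2 mutants by a test of the difference itself: 61H/H stood above 61P/P by a log2 fold change of 0.28 ± 0.05 (edgeR, adjusted p = 0.0358; 3 of 3 libraries above all 3 of 61P/P). The means were 54.1 ± 1.68 CPM in 61H/H MEFs and 44.6 ± 2.70 CPM in 61P/P MEFs (SD, n = 3 each). The call was lost in 8 of the 12 fits that left out a library (adjusted p up to 0.155) and in a fit of only those genotypes (edgeR, adjusted p = 0.052). With 3 libraries per genotype no single library was tested for standing apart.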

How the results depend on the processing

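No fold change past the threshold changed sign under any alternative. The report counts 9 genes called in 61R/R MEFs, 19 in 61H/H MEFs and 1 in 61P/P MEFs against 61Q/Q, 1 between 61H/H and 61P/P, 16 for both melanomagenic genotypes and 6 across genotypes. No filter on low counts gave 5 for 61R/R, and a fit of only the compared genotypes gave 0 for 61R/R against 61Q/Q and 0 for 61H/H against 61P/P. In these fits 12.8%, 0.0% and 5.09% of all genes were called. The length trend taken out gave 4 for 61R/R MEFs, 8 for 61H/H MEFs and 8 for the melanomagenic genotypes, and moved the balance of higher and lower calls: 1 and 3 for 61R/R (8 and 1 with it kept), 5 and 3 for 61H/H (17 and 2), 0 and 1 for 61P/P (1 and 0), and 6 and 2 for the melanomagenic genotypes (14 and 2). In these 4 comparisons 18.2%, 27.0%, 6.43% and 27.7% of all genes were called with the trend taken out. DESeq2 gave 3 for 61P/P, 3 for 61H/H against 61P/P and 17 across genotypes, and limma-voom gave 0 for 61P/P. Of all genes DESeq2 called 15.6%, 12.2% and 37.9% in these tests, and limma-voom called 6.99% for 61P/P. The cause of these shifts was not tested. With the replicate block 0 genes were called for 61P/P and 23 for 61H/H, and no other count of the 80 genes moved by over 1.5 times; Ndufb8 in 61R/R MEFs and Ndufa2 in 61H/H MEFs were then not called (adjusted p = 0.0549 and 0.0515) and Uqcrq was lower in 61H/H MEFs (0.0356). Over all genes the share called with the block was 6.28% for 61P/P and 28.9% for 61H/H against 61Q/Q. The block moved the share called from 3.45% to 6.38% for 61R/R against 61P/P. For 61H/H against 61P/P it moved from 2.49% to 6.36%. Apart from the correlations of same-numbered libraries given above, whether the replicate numbers pair the libraries was not tested. With 1 library left out the counts were 0 to 29 for 61R/R MEFs, 3 to 28 for 61H/H MEFs, 0 to 5 for 61P/P, 0 to 2 for 61R/R against 61P/P, 0 to 2 for 61H/H against 61P/P, 2 to 32 for the melanomagenic genotypes and 0 to 22 across genotypes. With 1 library left out the median log2 change of the 80 genes ran between 0.08 and 0.15 for 61R/R MEFs, 0.11 and 0.14 for 61H/H MEFs, and 0.06 and 0.09 for 61P/P against 61Q/Q, between 0.03 and 0.11 for 61R/R against 61P/P, and between -0.04 and 0.03 for 61R/R against 61H/H. With the length trend removed it was 0.03, 0.05 and -0.01 in 61R/R MEFs, 61H/H MEFs and 61P/P MEFs against 61Q/Q.

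Genes with few reads (Cox6a2, Cox4i2, Cox7a1 and Ndufa4l2) carry wide errors. Reads of overlapping genes on opposite strands, among them Ndufa13 with Tssk6 (27.5% of exon bases) and Uqcrc2 with Pdzd9 (12.1%), cannot be told apart if counting did not use strand.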

Other observations

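Mitochondrial ribosomal proteins build the ribosome that translates the mitochondrially encoded subunits. Of 77 such genes 22 were higher in 61R/R MEFs (28.6%, where 9.43% of all genes were), 33 in 61H/H MEFs (42.9%, where 13.8% were) and 0 in 61P/P MEFs (edgeR, 11 at an unadjusted p under 0.05; 1 by DESeq2 and 0 by limma-voom), and none was lower, with median log2 fold changes of 0.16, 0.21 and 0.09. Mrps6 rose by 0.83 ± 0.16 in 61R/R MEFs and 0.90 ± 0.16 in 61H/H MEFs (edgeR, adjusted p = 0.0194 and 0.00481), Mrps30 by 0.30 in 61R/R MEFs, and Mrpl49 and Mrpl45 by 0.39 and 0.42 in 61H/H MEFs. These genes are short too, with a median counted length of 1053 bases, and with the length trend removed 12 were higher and 1 lower in 61R/R MEFs, and 21 higher and 1 lower in 61H/H MEFs. No gene of the list was called in 61R/R MEFs without 61R/R replicate 2 or 3 or 61Q/Q replicate 1 or 3, and 13 to 15 were without a 61H/H library or 61P/P replicate 2. In 61H/H MEFs the count was 9, 15 and 20 without 61H/H replicates 1, 2 and 3, and 8 and 10 without 61Q/Q replicates 1 and 3. In 61P/P MEFs it was 5 without 61Q/Q replicate 2 and 1 without 61R/R replicate 1.

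Of 22 regulators of mitochondrial biogenesis 1 was higher and 1 lower in 61R/R MEFs, 3 and 1 in 61H/H MEFs, and 2 and 0 in 61P/P MEFs; 4.55%, 13.6% and 9.09% were higher, where 9.43%, 13.8% and 3.15% of all genes were. Gabpb2, a subunit of the ETS factor GABP, rose by 0.31 ± 0.08 in 61R/R MEFs, 0.37 ± 0.08 in 61H/H MEFs and 0.34 ± 0.08 in 61P/P MEFs (adjusted p = 0.028, 0.00884 and 0.0367), and Polg, the polymerase of mitochondrial DNA, fell by 0.29 in 61R/R MEFs and by 0.28 in 61H/H MEFs on the log2 scale. Esrrg, a nuclear receptor that acts on oxidative genes, rose by 1.23 ± 0.37 in 61H/H MEFs and 2.09 ± 0.37 in 61P/P MEFs (adjusted p = 0.0301 and 0.0199). Of these calls, that of Gabpb2 in 61H/H MEFs held with each library left out in turn, and the others were each lost without 61Q/Q replicate 1 and also without 61Q/Q replicate 3. Of 22 genes of mitochondrial import 2 were higher in 61R/R MEFs, 2 in 61H/H MEFs and 1 in 61P/P MEFs, and none was lower. These shares of 9.09%, 9.09% and 4.55% were under or near those of all genes. Tomm7, a small subunit of the outer membrane translocase, rose by 0.24 ± 0.08 in 61R/R MEFs and 0.29 ± 0.08 in 61H/H MEFs (adjusted p = 0.0483 and 0.0178). The Tomm7 call in 61R/R MEFs was lost with the length trend removed (0.0902) and without any library other than 61R/R replicate 1 or 61P/P replicate 1, and that in 61H/H MEFs without 61H/H replicate 2 (0.0533) or 61Q/Q replicate 1 (0.0729).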
